A study of Glycine max with 4 samples.

Results

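The sites described here are replicate 1 peaks that were called as 2 or more separate peaks in replicate 2. They were chosen from the peak intervals of both replicates, as peaks on the assembled chromosomes that overlapped at least 2 replicate 2 peaks by 1 bp or more each. Of the 30908 replicate 1 peaks on chromosomes, 532 met this rule, which is 1.72% (95% Wilson interval 1.58 to 1.87). They are called split sites, and the replicate 2 peaks within them are called parts. The parts numbered 1077, or 4.25% of the 25350 replicate 2 peaks on chromosomes.

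The data are a chromatin immunoprecipitation and sequencing (ChIP-seq) series on embryos of soybean, cultivar Williams 82. Embryos at early maturation were taken from seeds of 6 to 7 mm, and the antibody was raised against a peptide of the protein encoded by GLYMA.07G038400, amino acids 188 to 202. The series has 2 ChIP samples, labelled as biological replicates, and 2 input samples of total chromatin that received no antibody. All 4 samples share cultivar, tissue and stage, and no sample lacking the protein or treated with an unrelated antibody was part of the design. The labels do not say whether the replicates came from separate plants, so the spread between them may be technical in part.

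Peak names in the deposited lists contain GRF5, which the labels do not explain. In plants, GRF usually stands for growth-regulating factor, a family of plant transcription factors that bind DNA through a WRC domain, act with GIF coactivators and promote cell proliferation in growing organs. Transcription factors often bind several places within a regulatory region. In ChIP-seq each bound place gives a mound of overlapping DNA fragments, and mounds close to each other run together where fragments from both cover the ground between them. A peak caller then reports 1 broad peak or several narrow ones, depending on whether the signal between the mounds stays above its threshold. The summit is the position of the highest mound, and the fold enrichment is the fragment pileup there over the local background of the caller, with 1 added to both.

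Nearly all split sites had 2 parts. There were 519 with exactly 2 parts (97.6%, 95.9 to 98.6) and 13 with 3 parts (2.44%, 1.43 to 4.14), and none had more. The opposite case was rare, since 28 replicate 2 peaks (0.110%, 0.0764 to 0.160) overlapped 2 replicate 1 peaks. These intervals are Wilson intervals at 95%, here and below, and cover counting error only. The smallest peak, which may reflect the fragment length used in calling, was 222 bp wide in replicate 1 and 191 bp wide in replicate 2. The smallest gap between neighbouring peaks was 52 bp and 51 bp, respectively. The lowest background was 3.11 fragments in replicate 1 and 2.31 in replicate 2, and the median pileup over all peaks was 34 and 26 fragments. The part of these differences between the lists in the direction of splitting was not tested.

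Of the 10 split sites with the highest replicate 1 fold, 6 had a strong part beneath the replicate 1 summit and a part at least 4 times weaker to one side. Parts this unequal were not typical of split sites in general, as the ratios given further on show. The site on chromosome 3 at 35737162 to 35738385 had a replicate 1 fold of 47.4, resting on 255 fragments at the summit (95% exact Poisson interval 225 to 288). Its parts had replicate 2 folds of 43.8, from 205 fragments (178 to 235), and 4.84, from 19 fragments (11.4 to 29.7). The summit of the stronger part lay on the same base as the replicate 1 summit, 35737560, and that of the weaker part 707 bp further on.

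A similar layout was seen on chromosome 12 at 5034081 to 5035501, where a replicate 1 fold of 45.7 stood beside parts of 45.3 and 8.48. The site on chromosome 8 at 21878124 to 21879042 had a replicate 1 fold of 44.2 and parts of 53.8 and 8.20, with summits 455 bp apart. On chromosome 15 at 10019319 to 10020301, the replicate 1 fold was 43.9 and the parts reached 51.7 and 5.83. At all 3 sites the replicate 1 summit lay within 31 bp of the summit of the stronger part. The sites on chromosome 16 at 1574948 to 1576536 and on chromosome 19 at 2343821 to 2345112 had folds of 45.3 and 37.8 in replicate 1, and their stronger parts were lower in replicate 2, at 27.9 and 27.0. Their weaker parts had folds of 6.69 and 6.17.

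Other strong sites held a pair of strong parts. On chromosome 9 at 1570349 to 1571611, the replicate 1 fold was 39.4, and the parts reached 22.2 and 29.8 with summits 613 bp apart. Their pileups were 76 fragments (59.9 to 95.1) and 105 (85.9 to 127), so the counting intervals overlapped. On chromosome 10 at 37708391 to 37709660 the parts had folds of 15.6 and 27.2, and on chromosome 12 at 33749098 to 33750344 they had 32.3 and 13.5. In these 3 sites the weaker part was itself stronger than the median replicate 2 peak, whose fold was 6.49. So were the weaker parts of the sites described above on chromosomes 12 (at 5034081), 8 and 16, with 8.48, 8.20 and 6.69.

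The site with the highest replicate 1 fold stood apart from the other 9. On chromosome 7 at 44132028 to 44133685, replicate 1 had a fold of 55.9 from 399 fragments (361 to 440), the highest pileup of all replicate 1 peaks. The parts in replicate 2 had folds of 10.2, from 43 fragments (31.1 to 57.9), and 5.94, from 22 fragments (13.8 to 33.3). The replicate 1 summit lay inside the stronger part but 261 bp from its summit. With a log2 ratio of 2.46 between the replicate 1 fold and that of the stronger part, this was the largest excess of replicate 1 among the split sites. The largest excess among the 21720 replicate 1 peaks with a single counterpart was 1.95.

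**Figure D1:**
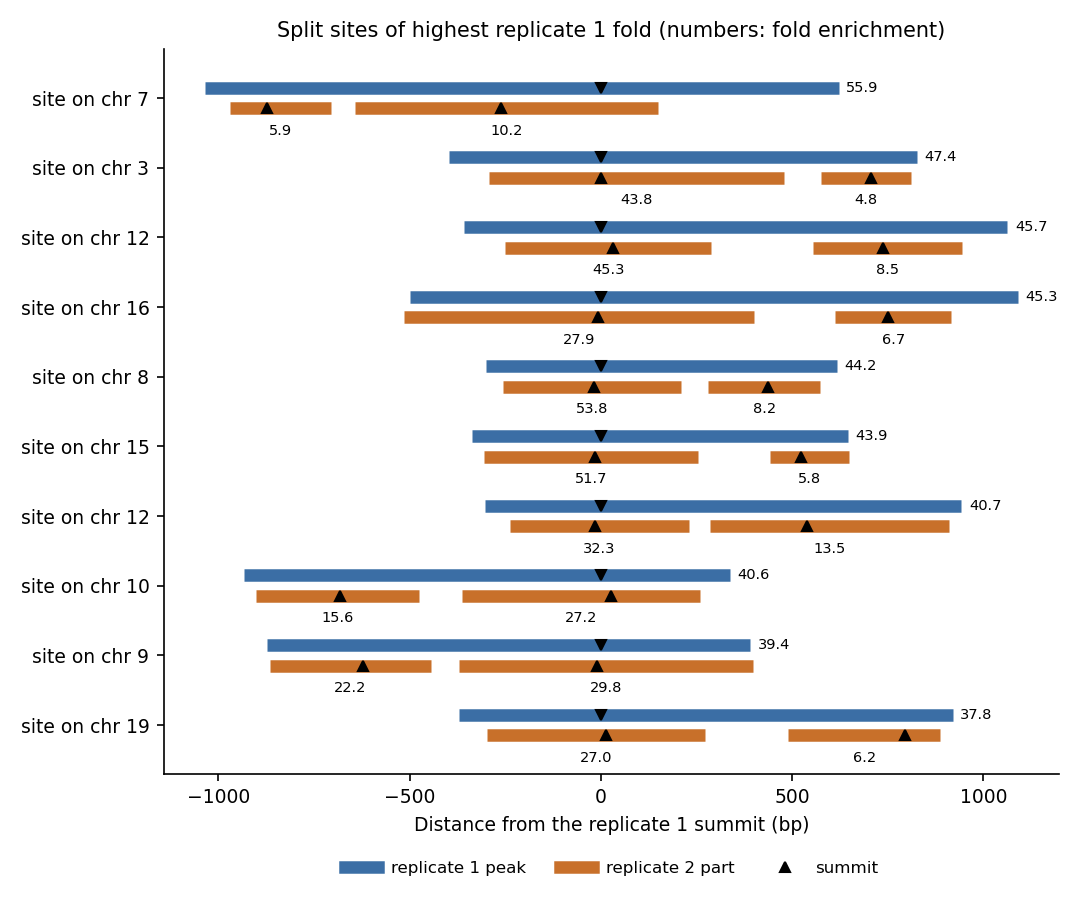
Peak intervals of the 10 split sites of highest replicate 1 fold, drawn to scale as distance in bp from the replicate 1 summit. Blue bars are replicate 1 peaks, orange bars are replicate 2 parts, triangles are summits and numbers are fold enrichments. In 9 sites the summit of the stronger part lies within 31 bp of the replicate 1 summit, and in the site on chromosome 7 it lies 261 bp away.

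Neighbouring summits of the parts were spaced by more than the width of the narrowest peaks in most sites. Over 545 pairs of neighbouring parts the median distance was 519 bp (order-statistic 95% interval 502 to 536), with quartiles of 429 and 627 bp and a range of 186 to 1551 bp. Distances of 300 to under 500 bp made up 41.8% (37.8 to 46.0) of the pairs, and distances of 500 to under 700 bp made up 38.5% (34.5 to 42.7). Only 14 pairs were under 300 bp apart, and 8 were at least 1000 bp apart. Between the parts, the stretch without a replicate 2 peak had a median length of 147 bp, with quartiles of 96 and 213 bp. The smallest peak width of 191 bp in replicate 2, with the smallest gap of 51 bp, limits how close the summits of separate peaks can be.

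The widest spacing was found on chromosome 8 at 7795257 to 7797370, where the summits of parts with folds of 13.0 and 6.19 lay 1551 bp apart. It was followed by a site on chromosome 11 at 2029799 to 2032085, whose parts had folds of 6.19 and 7.03 and summits 1254 bp apart. A second site on chromosome 11, at 3248331 to 3249992, had summits 1161 bp apart and folds of 15.6 and 6.01. In these 3 sites the replicate 1 summit lay in the stronger part except at 2029799 to 2032085, where it lay in the weaker part. A site on chromosome 2 at 38938072 to 38940091 had a spacing of 1117 bp and nearly even folds of 8.76 and 9.44. The fifth, on chromosome 13 at 21900951 to 21903155, had 3 parts, with folds of 9.19, 7.67 and 6.83, and its largest spacing was 1101 bp.

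At the other end, the closest summits were 186 bp apart, in a weak site on chromosome 9 at 4075813 to 4076230. Its parts had folds of 3.81, from 13 fragments (6.92 to 22.2), and 5.14, from 18 fragments (10.7 to 28.4). The next were 232 bp apart on chromosome 15 at 333186 to 333827, with folds of 3.76 and 4.02, and 241 bp apart on chromosome 10 at 42915570 to 42916498, with folds of 4.23 and 4.62. All 6 parts of these sites rested on 13 to 22 fragments. At such pileups the counting intervals of both parts overlapped in each of the 3 sites.

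**Figure D2:**
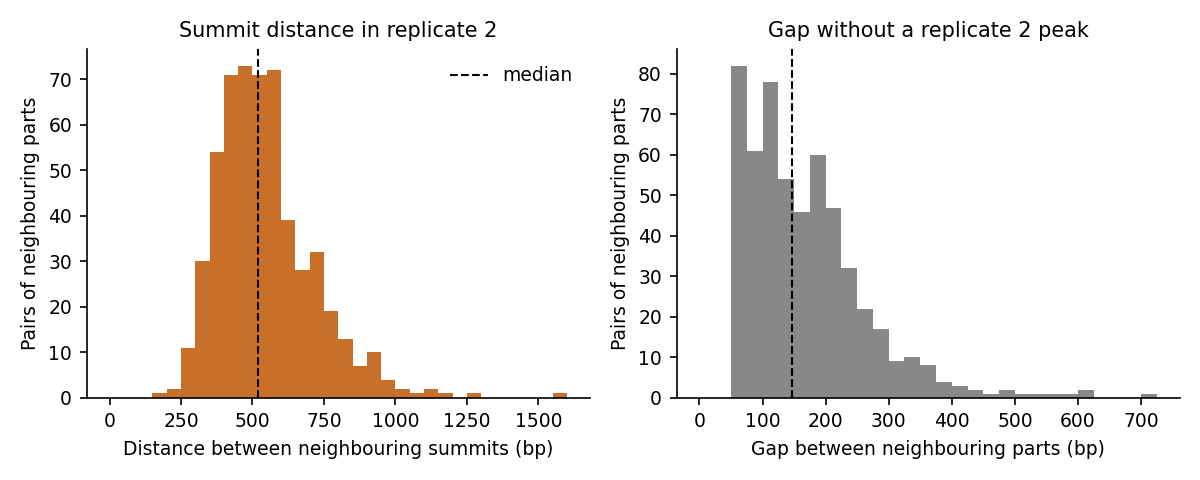
Histograms of the distance in bp between neighbouring replicate 2 summits of a split site (left) and of the gap in bp between neighbouring parts (right), over 545 pairs of neighbouring parts. Dashed lines are the medians, 519 bp and 147 bp.

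The replicate 1 summit mostly picked out the part that was stronger in replicate 2. It lay in the strongest part at 418 sites (78.6%, 74.9 to 81.8), in another part at 104 sites (19.5%, 16.4 to 23.1), in the gap between parts at 9 sites and beyond the outer part at 1 site. Summits and folds were not used in choosing the sites, and the fold of the parts comes from replicate 2 alone. The strongest parts were wider, however, with a median of 406 bp against 277 bp for second parts. How much of the share follows from this difference in width was not tested. The nearest replicate 2 summit lay a median of 30 bp from the replicate 1 summit, with quartiles of 13 and 51 bp. Replicate 1 peaks with a single counterpart had a median of 30.5 bp, with quartiles of 14 and 56 bp. These medians were close, but they are not a like comparison. At split sites the distance is to the nearest of 2 or more summits, which makes it smaller, whereas a single counterpart has only 1 summit.

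How often the replicates pointed to the same part depended on how unequal the parts were. Where the stronger part exceeded the second by less than 1.2 times, 54 of 109 sites (49.5%, 40.3 to 58.8) had the replicate 1 summit in the stronger part, and 51 had it in another part. This share was 67.7% (59.2 to 75.2) of 127 sites at ratios of 1.2 to under 1.5, and 89.2% (82.3 to 93.6) of 120 sites at ratios of 1.5 to under 2. It reached 95.6% (89.2 to 98.3) of 91 sites at ratios of 2 to under 3. At ratios of 3 or more it was 84 of 85 sites (98.8%, 93.6 to 99.8). Replicate 1 fold rose along these classes too, from a median of 8.70 in the most even to 22.1 in the most uneven.

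The same order held at both levels of replicate 1 fold. Among sites under 10-fold, the share was 57.3% (49.3 to 65.0) of 150 sites with ratios under 1.5, and 83.8% (73.3 to 90.7) of 68 sites with higher ratios. Among sites of 10-fold or more it was 62.8% (52.2 to 72.3) of 86 sites and 96.9% (93.8 to 98.5) of 228 sites. Counting error divided the sites in a like manner. The exact Poisson intervals of the pileups of the 2 strongest parts overlapped at 352 sites (66.2%), and 68.5% (63.4 to 73.1) of these had the replicate 1 summit in the strongest part. Where the intervals did not overlap, it was 177 of 180 sites (98.3%, 95.2 to 99.4).

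**Figure D3:**
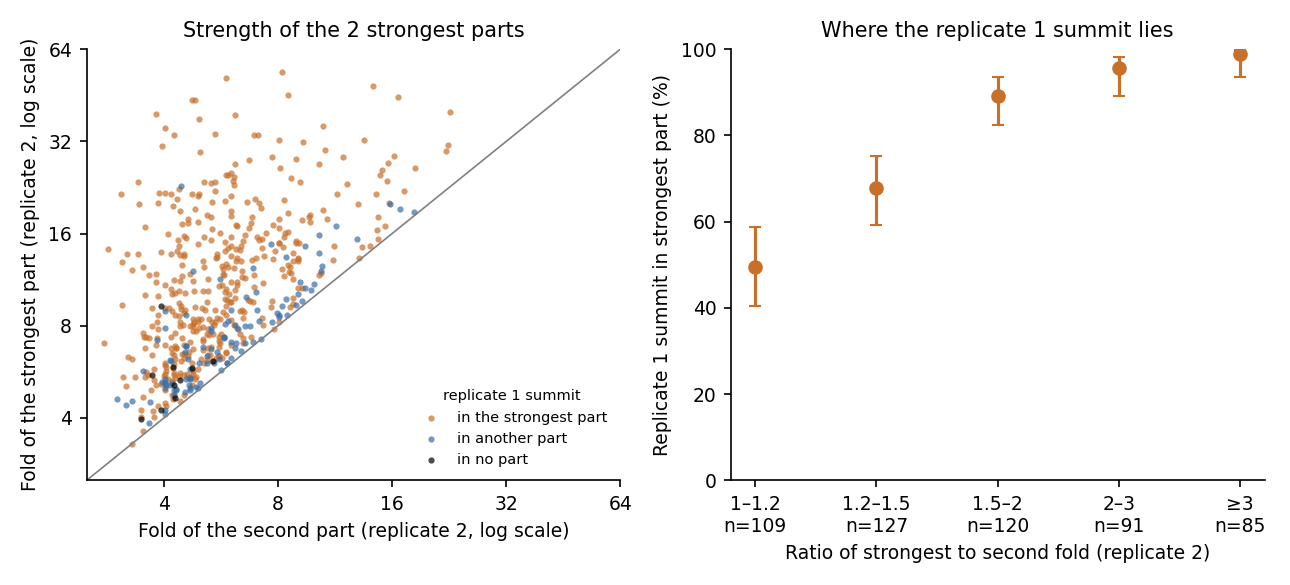
Left, replicate 2 fold of the strongest part against that of the second part for the 532 split sites, on log scales, coloured by where the replicate 1 summit lies, with a line of equal folds. Right, share of sites (%) whose replicate 1 summit lies in the strongest part, by the ratio of the 2 folds, with 95% Wilson intervals, rising from 49.5% to 98.8%.

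The parts of a site were commonly unequal by a moderate factor. The median ratio of the strongest to the second fold was 1.59 (order-statistic interval 1.52 to 1.70), with quartiles of 1.25 and 2.35 and a maximum of 10.3. At 236 sites (44.4%, 40.2 to 48.6) the ratio was under 1.5, and at 85 sites (16.0%, 13.1 to 19.3) it was 3 or more. The strongest part had a median fold of 9.54, resting on a median of 40 fragments. The second part had a median fold of 5.33, resting on 22 fragments. The median over all replicate 2 peaks was 6.49 and 26 fragments. Parts were sorted by fold within each site, so a strongest part above that median and a second part below it follow in part from the sorting.

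Across sites, the folds of the strongest and the second part had a Spearman's rho of 0.54. The second fold cannot exceed the strongest of its site, so this follows in part from the sorting. How much of it does was not tested. In the 85 sites with a ratio of 3 or more, the median fold was 21.5 for the strongest part and 4.84 for the second, and in the 109 sites with a ratio under 1.2 it was 6.36 and 5.83. These classes were formed from the same folds, so the values only describe them. A second part above 10-fold occurred at 44 sites (8.27%, 6.22 to 10.9), whereas the strongest part exceeded 10-fold at 252 sites (47.4%). Over all replicate 2 peaks the upper quartile of the fold was 9.68, so under 25% of them exceeded 10-fold. Because parts were sorted by fold, both counts follow in part from the sorting. The local background at the summit had a median of 2.98 fragments for strongest parts and 3.33 for second parts. Second parts were also narrower, with a median width of 277 bp against 406 bp. Parts were ranked by fold, which contains the background, so the difference in background follows in part from the ranking. Across the 532 sites, the replicate 1 fold had a rho of 0.81 with the fold of the strongest part and 0.45 with that of the second. These are descriptions across sites, which share their libraries and are not independent replicates.

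Among sites of at least 10-fold, the most uneven was on chromosome 16 at 3098223 to 3099485, with parts of 39.4 and 3.82. On chromosome 18 at 57973800 to 57974815 the parts had folds of 4.75 and 43.6, and the third most uneven was the site on chromosome 3 described above. The weaker parts of these 3 sites rested on 18 to 20 fragments. The most even was on chromosome 5 at 39196406 to 39197423, with folds of 13.3, from 58 fragments (44.0 to 75.0), and 13.1, from 64 fragments (49.3 to 81.7). There the part with the higher fold had the lower pileup, because the backgrounds were 3.42 and 3.98 fragments. The sites on chromosome 16 at 35819529 to 35821021 and on chromosome 13 at 40165064 to 40166681 had parts of 8.65 and 8.43 and of 18.3 and 18.8. In both, the replicate 1 summit lay in the part with the slightly lower fold.

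The stronger part was found on either side. It was at the lower coordinate at 244 of 532 sites (45.9%, 41.7 to 50.1). The strands of genes were not used here, so sides could not be read relative to transcription.

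The fold of the strongest part was close to the replicate 1 fold of the site. The replicate 1 fold is that at its summit, which lay in the strongest part at 418 of the 532 sites. At the remaining sites the ratio compares different places. The median log2 ratio of replicate 1 to the strongest part was 0.21 (order-statistic interval 0.16 to 0.27) with an SD of 0.49 over 532 sites. For replicate 1 peaks with a single counterpart it was 0.14 (0.13 to 0.15) with an SD of 0.48. Replicate 1 had the higher fold at 68.0% (64.0 to 71.9) of the split sites and at 61.2% (60.6 to 61.9) of the peaks with a single counterpart. At 26 split sites (4.89%) the replicate 1 fold was below even the second part. By this measure, and with that limit, the spread between replicates was similar for split and undivided sites.

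The 13 sites with 3 parts were broad, with a median width of 1517 bp and a range of 1012 to 2270 bp. The strongest was on chromosome 7 at 38649387 to 38650736, with a replicate 1 fold of 23.5 and parts of 4.52, 15.7 and 4.42. The last of these parts overlapped the replicate 1 peak by only 34 bp. Its summit, at 38650765, lay beyond the end of that peak. Another on chromosome 7, at 35333600 to 35335116, had a similar order, with parts of 4.42, 13.3 and 5.48 around a replicate 1 fold of 23.1. A further site of this shape lay on chromosome 11 at 34287234 to 34288658, with parts of 4.02, 8.92 and 4.21. By contrast, the parts on chromosome 9 at 47197212 to 47199099 increased along the coordinate, from 7.87 over 9.11 to 15.0. Those on chromosome 1 at 55774899 to 55776766 did so too, with 4.93, 8.11 and 26.2. The strongest part was in the middle at 5 of the 13 sites, and the replicate 1 summit lay in the strongest part at 11 of them.

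Split sites were mostly broad in replicate 1, since a broader peak can more easily reach 2 separate parts. The rule does not require breadth, and the narrowest split site was 272 bp wide. Their median width was 978 bp (quartiles 811 and 1184 bp), against 435 bp for replicate 1 peaks with a single counterpart. Width enters the rule, so this is a description. The share of replicate 1 peaks that were split was 0.0242% of 16530 peaks under 400 bp and 2.83% of those of 600 to under 800 bp. It was 16.4% (14.2 to 18.9) of 968 peaks of 800 to under 1000 bp, 39.4% (35.3 to 43.6) of 533 peaks of 1000 to under 1500 bp, and 63.5% (51.1 to 74.3) of 63 broader ones. In replicate 2, 4 of 132 peaks of 1000 to under 1500 bp were split in replicate 1 (3.03%, 1.18 to 7.53).

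Among peaks of at least 800 bp, 409 were split and 1145 had a single counterpart. The split ones had their replicate 1 summit further from the middle, at a median of 48.2% (46.6 to 49.7) of the distance from centre to edge, against 30.0% (28.3 to 31.4). Their median fold was 13.2 (12.6 to 14.4), against 16.4 (15.9 to 17.3) for the undivided ones. The single counterparts of undivided broad peaks had a median width of 745 bp, and the strongest parts of split sites of at least 800 bp had one of 439 bp. The rule requires at least 2 separate parts with a gap between them. Narrower parts and a summit away from the middle therefore follow in part from the rule. A fold above 20 was found at 98 of the 532 split sites (18.4%, 15.4 to 21.9), where 5.33% of all replicate 1 peaks exceeded it. By the medians above, the order was the other way among peaks of at least 800 bp.

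Whether neighbouring replicate 2 peaks were joined in replicate 1 depended on the gap between them. Of 177 pairs with a gap under 100 bp, 143 (80.8%, 74.4 to 85.9) lay in the same replicate 1 peak. The share was 66.3% (61.3 to 71.0) of 359 pairs with gaps of 100 to under 200 bp, 27.3% (23.3 to 31.7) of 432 pairs at 200 to under 300 bp and 5.11% (3.76 to 6.91) of 763 pairs at 300 to under 500 bp. At 200 to under 300 bp, 62.0% of the pairs were found as separate peaks in both replicates. In the opposite direction, 16 of 254 replicate 1 pairs with a gap under 100 bp (6.30%, 3.91 to 9.99) lay in the same replicate 2 peak, and 0 of 1098 pairs at 300 to under 500 bp, which allows a share of up to 0.273%, taken as 3 counts of the total. Of those 254 close replicate 1 pairs, 112 were separate in both replicates, and 104 had a counterpart for only one of the peaks.

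**Figure D4:**
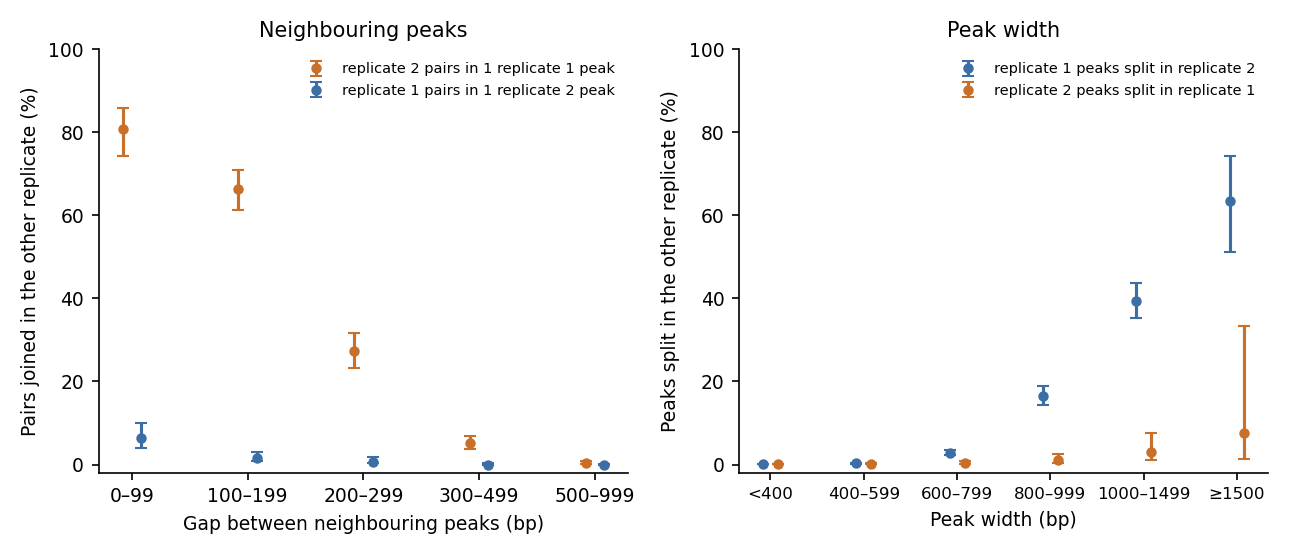
Left, share (%) of pairs of neighbouring peaks of a replicate that lie in the same peak of the other replicate, by the gap between them in bp. Right, share (%) of peaks that are split in the other replicate, by peak width in bp. Bars are 95% Wilson intervals, and replicate 2 pairs with gaps under 100 bp were joined in 80.8% of cases and replicate 1 pairs in 6.30%.

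The parts fell largely inside the outline of the replicate 1 peak. Of the 1077 parts, 833 (77.3%, 74.7 to 79.7) were wholly inside, and all parts were inside at 319 sites (60.0%, 55.7 to 64.0). The parts covered a median of 73.2% of the replicate 1 peak. Overlaps of under 50 bp were found for 11 parts, and 6 parts also touched a further replicate 1 peak. Just inside the rule, a site on chromosome 2 at 34031510 to 34032088 overlapped its second part, of fold 4.11, by 1 bp. Sites on chromosome 2 at 5462006 to 5462277 and on chromosome 8 at 17171303 to 17171843 overlapped by 13 and 18 bp. Just outside it, replicate 1 peaks on chromosomes 15, 9 and 3, starting at 5339954, 25022918 and 41628961, missed a second replicate 2 peak by 3, 4 and 6 bp, and those peaks had folds of 4.06, 6.88 and 3.41. In all, 23 peaks with a single counterpart had a further replicate 2 peak within 50 bp of their edge.

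Split sites were spread over all 20 chromosomes, roughly in proportion to the replicate 1 peaks there. Their number ranged from 17 on chromosome 12 to 35 on chromosome 6, with a median of 27.5. As a share of the replicate 1 peaks of a chromosome they ranged from 1.24% (0.859 to 1.78) on chromosome 13 to 2.31% (1.66 to 3.21) on chromosome 4. The intervals of all 20 chromosomes included the overall share of 1.72%, so no chromosome stood apart beyond counting error. Chromosome 13, with the most replicate 1 peaks (2260), had 28 split sites. Per Mb, chromosome 7 had the most, at 0.740, and chromosome 14 the fewest, at 0.368.

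Along the chromosomes, split sites were concentrated towards the ends. The outer 25% at each end held 460 of the 532 sites (86.5%, 83.3 to 89.1), where 79.2% of all replicate 1 peaks lay there. For peaks of at least 800 bp the share was 86.3% (82.6 to 89.3) of split ones and 82.3% (80.0 to 84.4) of those with a single counterpart, and these intervals overlapped. All 20 chromosomes had more split sites in the outer parts than in the central 50%, and chromosomes 1 and 16 had none in the centre. Chromosome 13 had the most there, 10 of its 28, followed by chromosome 11 with 8 of 25. Since 79.2% of all replicate 1 peaks lay in the outer parts, these counts are not by themselves particular to split sites. The share of all replicate 1 peaks is not given here for each chromosome. Between 50% and 60% of the chromosome length lay 5 split sites, which were 0.674% (0.288 to 1.57) of the replicate 1 peaks there. Between 60% and 70% lay 6, or 0.588% (0.270 to 1.28). The share was 1.52% (1.03 to 2.24) between 30% and 40%, and 1.27% (0.743 to 2.16) between 40% and 50%. Both of these intervals included the overall share of 1.72%. In the first 10% of the length the share was 2.00% (1.68 to 2.38). The last Mb of a chromosome end held 52 split sites (9.77%, 7.53 to 12.6) and 7.76% of all replicate 1 peaks.

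**Figure D5:**
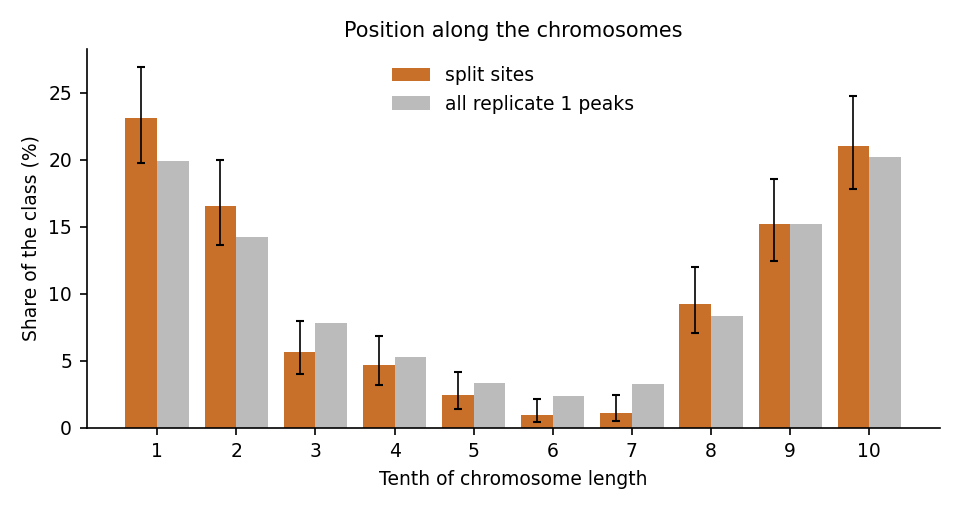
Share (%) of the 532 split sites and of all 30908 replicate 1 peaks in successive steps of 10% of the chromosome length, summed over 20 chromosomes, with 95% Wilson intervals for the split sites. Both classes are most frequent in the outer 20% at each end.

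The distances between split sites depend on their number, which was 1.72% of the replicate 1 peaks on chromosomes. The nearest other split site lay a median of 299 kb away, and 20 sites (3.76%, 2.45 to 5.74) had another within 10 kb. Whether split sites lay closer together than a like number of other peaks was not tested. The densest windows of 1 Mb held 6 split sites each, at 51 to 52 Mb on chromosome 1 and at 41 to 42 Mb on chromosome 9. A further replicate 1 summit within 2 kb was present at 216 split sites (40.6%, 36.5 to 44.8), and at 37.3% (36.7 to 37.8) of all replicate 1 peaks. Coordinates are 1-based and follow the deposited lists, and the genome build behind them is unnamed in the labels. Genes and sequences at these sites were not analysed here.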

How the data were processed

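The submitters' processing notes name Bowtie 0.12.7 and MACS2, and no MACS2 version or genome build. The deposited data are a peak list for each of the 2 ChIP replicates, so peaks were called per replicate. Inputs enter only through that calling. By the column order of the narrowPeak format, the authors deposited for each peak a fold (a linear ratio of ChIP to background, which the recovered values met with 1 added to both), −log10 of the p-value and q-value, a score and the summit position. The score was not used.

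Overlaps were computed between the lists as deposited. Read totals were not given. The pileup and background of each peak were recovered as the whole number of fragments and the Poisson background that meet the deposited fold and p-value, deviating from whole numbers by at most 0.0721% of a step (replicate 1) and 0.581% (replicate 2). This relies on knowledge of how MACS2 computes fold and p. Reads amplified by PCR and lacking molecular identifiers are not independent, so all intervals cover counting error only.

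Strength is the fold. Chromosome length is the end of the last peak. Sites are not replicates and their choice used both replicates, so no test was made, and shares are given with 95% Wilson intervals. The sites, classes and alternatives were chosen with earlier results of these data known. Named sites are the 10 of highest replicate 1 fold, the 5 of highest replicate 1 fold among the 13 with 3 parts, the 5 with the widest and 3 with the closest summits, the 3 most even and most uneven of at least 10-fold, and those nearest the rule's limit. The site overlap and pileup methods were tested on simulated data. Python 3.11.15 was used with scipy 1.17.1, numpy 2.4.6, pandas 2.3.3 and matplotlib 3.10.9.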

Additional observations from a re-analysis of the deposited data

How the results depend on the processing

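Of 48 values from 12 alternatives, 37 stayed within the interval of the reported value or, for the number of sites, within 1.5 times it. With a −log10 q of at least 10 in both lists, 234 split sites were left, of which 98.7% had exactly 2 parts, and the median summit distance was 568 bp; fewer peaks enter by construction. With the roles of the replicates exchanged, there were 28 sites, all of 2 parts (100%), with a median distance of 474 bp, 67.9% with the summit in the strongest part and 89.3% in the outer 25% of chromosomes; the cause of these differences was not tested, and 28 sites limit them. Ranking parts by −log10 q gave a median ratio of 2.31, which is on another scale, and ranking by pileup put the summit in the strongest part at 82.3% of sites. The outer 10% at each end held 44.2%, being a smaller region by construction. No split site had a background over 20, so removing such peaks moved no value, and those values count among the 37. Alternatives that kept nearly the same sites, with 523, 511 or 535 of them, also left little room to move. The tally of 37 is therefore a weak measure of stability. Leaving out a replicate could not be run, because the rule needs both. No paired analysis was possible because peak lists of the ChIP samples alone hold no ChIP and input values to pair.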

Other observations

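The 28 replicate 2 peaks that were called as 2 peaks in replicate 1 had a median width of 646 bp, with a range of 285 to 1976 bp, and a median replicate 2 fold of 6.60, with a range of 3.55 to 38.3. The gap between the replicate 1 peaks within them had a median of 93.5 bp, against 147 bp between the parts of the split sites. On unplaced scaffolds, which the split sites leave out, 3 replicate 1 peaks overlapped at least 2 replicate 2 peaks.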
